A study of Homo sapiens with 4 samples.

Results

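Syndecans and glypicans are the main families of cell-surface heparan sulfate proteoglycans, proteins that carry long sulfated sugar chains. The genes were chosen by name: SDC1, SDC2, SDC3 and SDC4 for the syndecans, and GPC1, GPC2, GPC3, GPC4, GPC5 and GPC6 for the glypicans, 10 of the 60721 genes in the count table. Their transcripts were measured in HS578T, an established human cell line of breast carcinoma origin. Each library comes from cells given GFP together with a non-targeting RNA (SCR) or a TLN1 siRNA (siTLN1), the RNA at 1.6 µM, and harvested 48 h later. There were 2 biological replicates a group. TLN1 encodes talin-1, the adaptor between integrins and actin. The labels give no clone, promoter or siRNA sequence, and all libraries share the GFP transfection. All 10 genes had a row in the count table. GPC3 and GPC5 had none in the authors' table of log2 CPM (CPM, counts scaled to the size of the library), and the same 8 of 10 members passed the filter on low counts used here.

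Syndecans span the membrane and end in a short cytoplasmic tail that binds PDZ proteins, and SDC4 is a known component of focal adhesions, where it acts beside integrins. Glypicans are held at the outer membrane leaflet by a glycosylphosphatidylinositol anchor and have no cytoplasmic part. The heparan sulfate chains of each family bind fibroblast growth factors, Wnt, Hedgehog and BMP ligands and fibronectin, and present them to their receptors.

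Total counts ran from 31854322 to 46353297 per library, and replicates of a group differed by more than counting noise (chi-square per degree of freedom of 13.7 in SCR and 18.5 in siTLN1). TLN1 stood at 868 and 874 CPM in the SCR libraries a and b and at 51.9 and 44.8 CPM in the siTLN1 libraries a and b, which left 5.55% of the SCR mean (edgeR log2 fold change −4.17, adjusted p 3.89e-13). All 10 of the mesenchymal markers looked for were measured, with summed levels of 43441 to 45200 CPM in SCR and 43743 to 50460 CPM in siTLN1, and 1 of them, the cadherin gene CDH2, was called lower (edgeR log2 fold change −0.89, adjusted p 2.45e-05). Of 10 epithelial markers 6 failed the filter on low counts, EPCAM and CDH1 were under 1 CPM in every library and GRHL2 was at 0, although the labels call the cells epithelial. The summed epithelial markers, mostly KRT18, were at 123 to 153 CPM in SCR and 132 to 143 CPM in siTLN1. Of 5 luminal markers, ESR1 and PGR stayed under 1 CPM in every library, whereas ERBB2 was at 59.8 to 72.7 CPM, GATA3 at 9.75 to 13.8 CPM and FOXA1 at 2.62 to 3.43 CPM. Blood and endothelial markers summed to 5.46 to 6.26 CPM in SCR and 4.31 to 4.64 CPM in siTLN1, with CD3E and HBB at 0. The part of these marker levels in the results was not tested.

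GPC4 and GPC1 were lower in siTLN1, and no syndecan passed the test. By the quasi-likelihood test of edgeR over 16137 genes, adjusted by Benjamini-Hochberg, 2 of the 8 tested members had an adjusted p under 0.05, and each of them was a glypican and lower. Over all genes tested, 6.07% passed in either direction, 3.77% lower and 2.30% higher. With 8 tested members the count is small, and the members were chosen with earlier results of these data known. The count is therefore given as a description. The median log2 fold change of the 8 members was −0.059, against 0.0033 for all genes tested. The libraries of the groups did not overlap for 4 of the 8 members, against 48.4% of all genes tested. In bulk RNA, fewer cells with a transcript and less of it per cell cannot be told apart. An exact permutation test of a single gene cannot go below a p of 0.333 with 2 libraries a group, so the p values come from the fit across genes.

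GPC4 (ENSG00000076716.9, GRCh38 chrX:133300103-133415489, minus strand) encodes a glypican known as a co-receptor for growth factor and Wnt signals. Its level was 16.7 and 15.9 CPM in the SCR libraries and 8.27 and 7.98 CPM in the siTLN1 libraries. The siTLN1 libraries were close to each other and far below the SCR libraries, with no overlap. Group means were 16.3 ± 0.542 CPM for SCR and 8.12 ± 0.204 CPM for siTLN1 (SD, n = 2 each), so siTLN1 held 49.9% of SCR. On the log2 scale this was −1.0 (SE 0.12, 95% interval −1.26 to −0.75, edgeR adjusted p 7.73e-05), rank 48 by p among all genes tested. Raw counts were 530, 554, 301 and 375 in SCR a, SCR b, siTLN1 a and siTLN1 b.

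GPC1 (ENSG00000063660.9, GRCh38 chr2:240435663-240468076, plus strand) is the glypican known for fibroblast growth factor binding in carcinoma cells. It was the most abundant glypican, at 158 and 182 CPM in SCR and 123 and 112 CPM in siTLN1. The SCR libraries lay apart from each other, yet each was above the siTLN1 libraries. Group means were 170 ± 17.0 CPM for SCR and 118 ± 7.53 CPM for siTLN1 (SD, n = 2 each), so siTLN1 held 69.3% of SCR. On the log2 scale this was −0.53 (SE 0.099, 95% interval −0.74 to −0.32, edgeR adjusted p 0.00390). The falls of GPC1 and GPC4 passed the threshold in all 12 other fits, 4 of which left out 1 library each. Their 95% intervals do not overlap, but the difference between the falls was not tested.

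GPC1, GPC4 and SDC2, which was not called, hold a short sequence word that also occurs in TLN1. The 7-base word GACAACA was taken from an earlier look at these data, and 1 transcript per gene was searched on the sense strand (GENCODE 29, GRCh38, longest coding sequence). The sites are shown because they lie in the members that fell, with the word in capitals, 8 transcript bases to each side and the sequence as DNA letters.
GPC4: aatgaatgGACAACAatgtacag
GPC1: ccctccagGACAACAgggacacg
TLN1: gaggacctGACAACAaccctcaa
The word in GPC4 lies in the 3′ UTR, at base 99 of 2767, in exon 9 of 9 (chrX:133302765-133302771, minus strand). In GPC1 it lies in coding sequence, at base 988 of 1674, in exon 5 of 9 (chr2:240464720-240464726, plus strand), and in TLN1 in coding sequence in exon 41 of 57 (chr9:35706037-35706043, minus strand).

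SDC2 held the word as well, with 2 copies in coding sequence, and its level did not pass the test. No annotated transcript of SDC1, SDC3, SDC4, GPC2, GPC3, GPC5 or GPC6 held it. Of 12863 tested protein-coding genes other than TLN1, 7.34% held the word in the 3′ UTR, a further 14.6% in coding sequence but not in the 3′ UTR, and 77.3% held no copy. The word was picked because genes with it had lower fold changes in these same libraries, so its presence in GPC4 and GPC1 is a description. The siRNA sequence is not given in the sources used here, and the part of the word in the lower levels of GPC4 and GPC1 was not tested.

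Promoters of GPC1 and GPC4 are shown because these are the members that fell. RefSeq (GRCh38.p14) entries of 8 of the 10 members were searched. GPC3 had no matching entry, and SDC2 was left out of the search, so nothing is stated on its promoter. The 250 bases before each start are printed 5′ to 3′ on the gene's strand, with the GC box GGGCGG or its reverse complement CCGCCC in capitals.
GPC1 (chr2:240435413-240435662, plus strand): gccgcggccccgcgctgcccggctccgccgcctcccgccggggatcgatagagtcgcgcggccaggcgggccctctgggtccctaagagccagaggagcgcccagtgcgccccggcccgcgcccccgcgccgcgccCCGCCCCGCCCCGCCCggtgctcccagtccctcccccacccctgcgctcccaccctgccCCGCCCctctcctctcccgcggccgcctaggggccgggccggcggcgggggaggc
GPC4 (chrX:133415490-133415739, minus strand): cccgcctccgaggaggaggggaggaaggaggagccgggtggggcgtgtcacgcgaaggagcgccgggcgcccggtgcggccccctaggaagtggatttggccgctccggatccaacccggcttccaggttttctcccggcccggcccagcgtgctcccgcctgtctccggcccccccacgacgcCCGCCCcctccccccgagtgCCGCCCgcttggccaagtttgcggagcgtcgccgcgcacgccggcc
The GPC1 window held 4 GC boxes, of which 3 overlap by a base each, and the GPC4 window held 2. GC content was 84.0% and 76.0%, against a median of 58.0% over all 35116 promoter entries. On either strand, 42.6% of all entries held a GC box in a window of this length and 24.3% held at least 2. SDC4 held 8, SDC3 5, GPC2 3, GPC5 2 and each of the SDC1 entries 1, and GPC6 had none in its window. The TATA box TATAAA was found in GPC5 and GPC6 among the 8 searched members and in 10.7% of all entries. The TEAD element CATTCC was found in none of the 8 searched members and in 11.9% of all entries. These matches are letters in a window and show no binding.

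The other glypicans did not pass the test. GPC6 (chr13:93226807-94408020, plus strand), a broadly expressed glypican of mesenchymal tissue, was at 15.9 and 14.6 CPM in SCR and 17.4 and 14.9 CPM in siTLN1. Its libraries overlapped between the groups, and its log2 fold change was 0.081 with a 95% interval from −0.17 to 0.33 (edgeR adjusted p 0.781). Of its exon bases, 7.17% lie in an unnamed gene on the opposite strand (ENSG00000278177). The counting used no strand, so reads on these bases were not told apart by strand. Their effect on the counts of GPC6 was not measured. GPC2 (chr7:100169606-100177381, minus strand), known from developing neurons, was scarce, with 45, 60, 76 and 122 raw counts in SCR a, SCR b, siTLN1 a and siTLN1 b. These correspond to 1.42, 1.72, 2.09 and 2.60 CPM, so the siTLN1 libraries were the higher ones without overlap. The log2 fold change of GPC2 was 0.58 with a 95% interval from 0.10 to 1.06, and at an edgeR adjusted p of 0.152 (unadjusted p 0.0202) it missed the threshold. It was 0.56 with an adjusted p of 0.0371 in limma-trend with replicate as a block.

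GPC3 and GPC5, a pair of glypicans known from fetal tissues, gave almost no reads. GPC3 had 1 count in SCR b and 0 counts in the other libraries. GPC5 had 0 counts in all 4 libraries. A count of 0 allows up to 3 counts, which is 0.0944 CPM in SCR a, 0.0861 CPM in SCR b, 0.0824 CPM in siTLN1 a and 0.0638 CPM in siTLN1 b, for counting error only. No fold change is given for either gene. Each of them is the genomic neighbour of an expressed glypican on the same strand. On chromosome X, GPC3 and GPC4 lie 120 kb apart, and on chromosome 13, GPC5 and GPC6 lie 353 kb apart. In each pair 1 neighbour was at or near 0 and the other was measured at 7 CPM or more in every library.

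**Figure D1:**
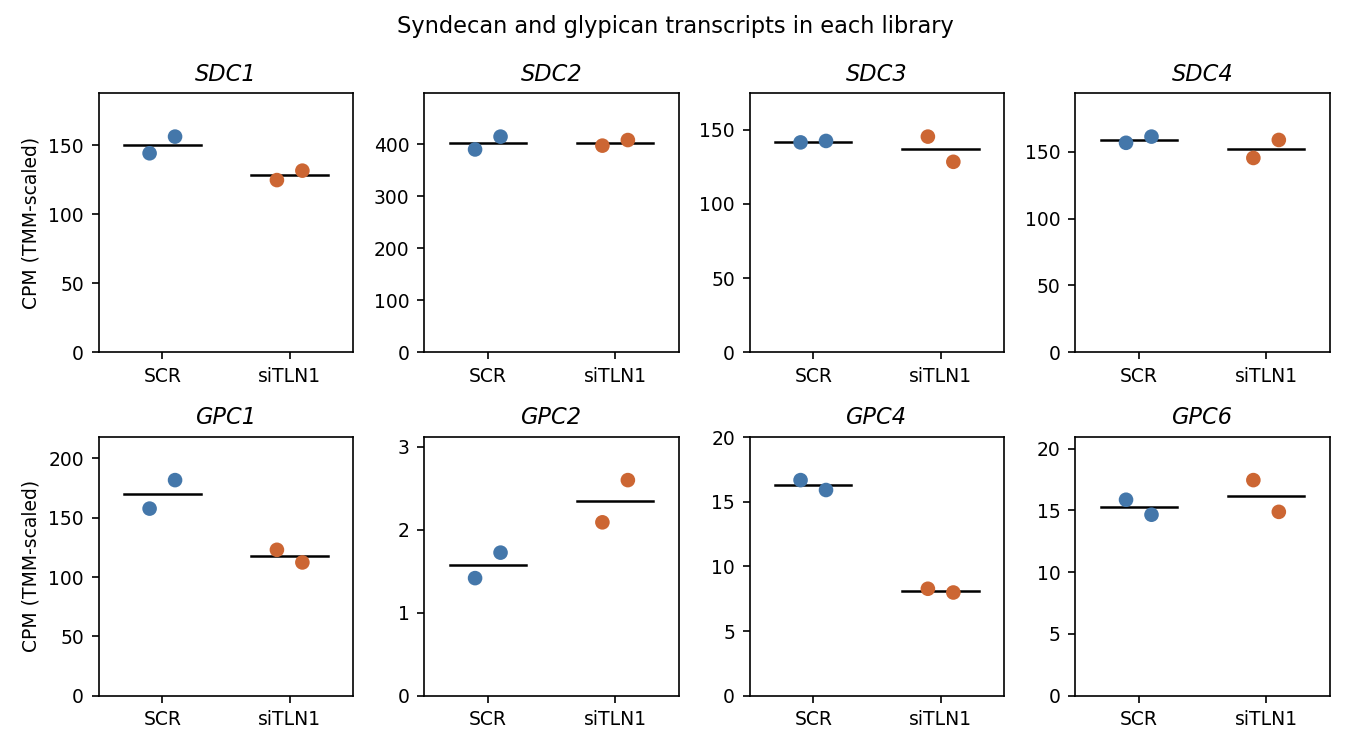
Level of each tested member in every library, in TMM-scaled CPM on axes that start at 0; points are libraries (blue SCR, orange siTLN1) and lines are group means. GPC4, GPC1 and SDC1 are lower and GPC2 is higher in siTLN1 without overlap, whereas SDC2, SDC3, SDC4 and GPC6 overlap between the groups.

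The syndecans were abundant and moved little. None of the 4 passed edgeR's adjusted threshold, 1 of the 4 (SDC1) had an unadjusted p under 0.05, against 19.8% of all genes tested, and DESeq2, limma-voom and limma-trend without a replicate term called 0. SDC1 (ENSG00000115884.11, chr2:20200797-20225433, minus strand), known from epithelial and plasma cells, was at 144 and 156 CPM in SCR and 125 and 132 CPM in siTLN1. Its groups did not overlap, and its log2 fold change was −0.23 with a 95% interval from −0.43 to −0.032 (unadjusted p 0.0250, edgeR adjusted p 0.172). In limma-trend with replicate as a block, SDC1 had the same −0.23 at an adjusted p of 0.00321. The interval of SDC1 lies above that of GPC4 and overlaps that of GPC1.

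SDC4 (ENSG00000124145.6, chr20:45325288-45348424, minus strand), the syndecan of focal adhesions, was at 157 and 161 CPM in SCR and 145 and 159 CPM in siTLN1. The groups overlapped, with a log2 fold change of −0.064 and a 95% interval from −0.26 to 0.13 (edgeR adjusted p 0.777). SDC2, known from mesenchymal cells, was the highest of all members, at 390 and 414 CPM in SCR and 397 and 408 CPM in siTLN1. Both siTLN1 libraries lay between the SCR libraries, and the log2 fold change was 0.0013 with a 95% interval from −0.20 to 0.20 (edgeR adjusted p 0.997). SDC3, known from the nervous system, was at 142 and 143 CPM in SCR and 145 and 128 CPM in siTLN1, with a log2 fold change of −0.053 and a 95% interval from −0.25 to 0.15 (edgeR adjusted p 0.827). The intervals of SDC2, SDC3 and SDC4 do not reach a change of 0.30 on the log2 scale in either direction, and no syndecan shares exon bases with another annotated gene.

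**Figure D2:**
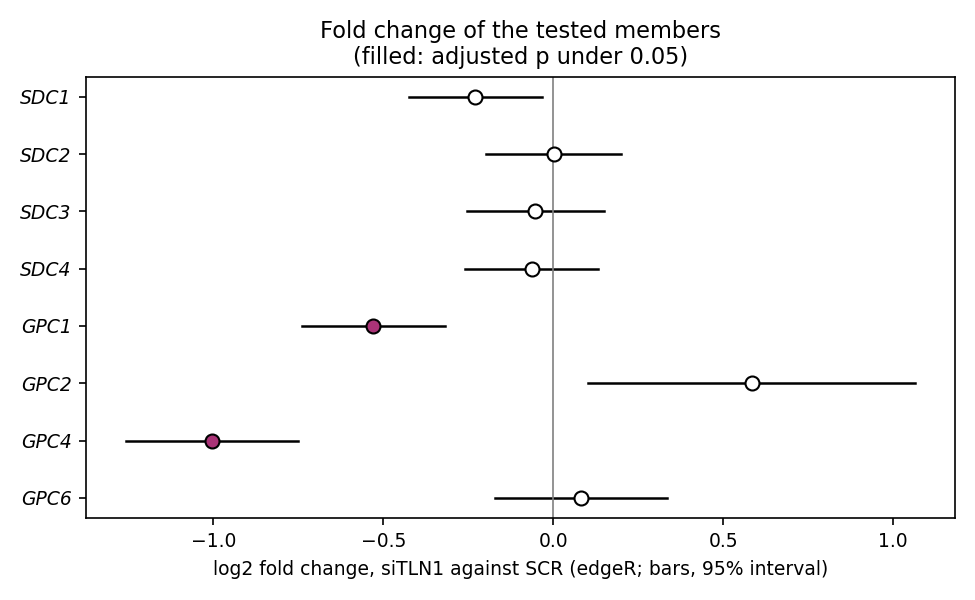
Fitted log2 fold change of siTLN1 against SCR for the 8 tested members, with bars for the 95% interval; filled points have an adjusted p under 0.05. The intervals of GPC4 (−1.26 to −0.75) and GPC1 (−0.74 to −0.32) lie wholly below 0, as does that of SDC1, which was not called, and that of GPC2 lies above 0 without a call. Those of SDC2, SDC3, SDC4 and GPC6 include 0.

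Levels of different genes were compared as CPM per kb of exon. In SCR the order was SDC2 (98.5 ± 4.28), SDC4 (60.9 ± 1.25), SDC1 (41.6 ± 2.37), GPC1 (26.0 ± 2.60), SDC3 (20.1 ± 0.0971), GPC4 (3.28 ± 0.109), GPC6 (2.14 ± 0.120) and GPC2 (0.409 ± 0.0566), each as mean ± SD of CPM per kb with n = 2. No neighbouring members in this order overlapped between SCR libraries. In siTLN1 the means placed SDC3 (19.4 ± 1.70 CPM per kb) above GPC1 (18.0 ± 1.15) and GPC6 (2.27 ± 0.255) above GPC4 (1.64 ± 0.0412), with n = 2 each. The libraries of SDC3 and GPC1 overlapped there, from 18.2 to 20.6 and from 17.2 to 18.9 CPM per kb, while those of GPC6 and GPC4 did not. The exon length counts every annotated exon once, so a gene with long rare exons appears lower than its main transcript would be. Without division by length, GPC1 stood second in SCR by its mean. Its SCR libraries (158 and 182 CPM) overlapped those of SDC4 (157 and 161 CPM).

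**Figure D3:**
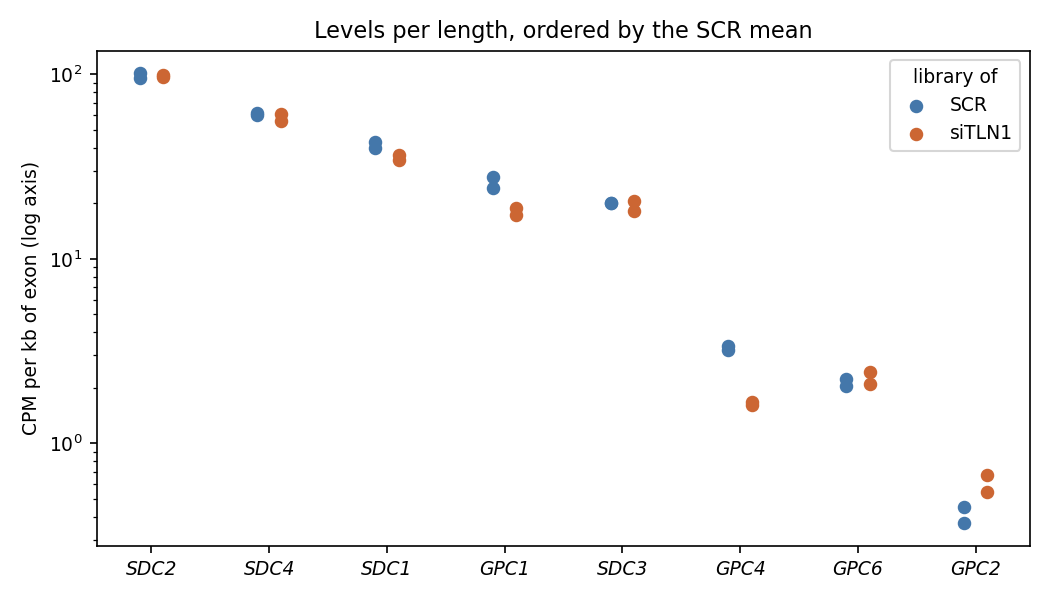
CPM per kb of exon on a log axis for the 8 members with reads in both groups, ordered by the SCR mean; each point is a library. The 4 syndecans and GPC1 lie above 17 CPM per kb in every library, and GPC4, GPC6 and GPC2 lie under 4.

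Summed over each family, the syndecans reached 215.4 and 226.7 CPM per kb in SCR and 208.0 and 215.3 CPM per kb in siTLN1. The glypicans reached 30.1 and 33.6 CPM per kb in SCR and 23.5 and 21.6 CPM per kb in siTLN1. Neither family's sums overlapped between the groups, but the nearest syndecan libraries were almost equal while the glypican libraries were well apart. SDC2 made up 44.3% and 44.8% of the syndecan sum in SCR and 46.7% and 46.4% in siTLN1. Among the glypicans, GPC1 held 80.2% and 83.0% in SCR and 80.2% and 79.7% in siTLN1, so its share lay within a narrow range while its level fell. The share of GPC4 was 11.2% and 9.55% in SCR against 7.09% and 7.45% in siTLN1. The share of GPC6 was 7.39% and 6.12% in SCR against 10.4% and 9.67% in siTLN1. These sums and shares are descriptions, and no test was run on them.

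**Figure D4:**
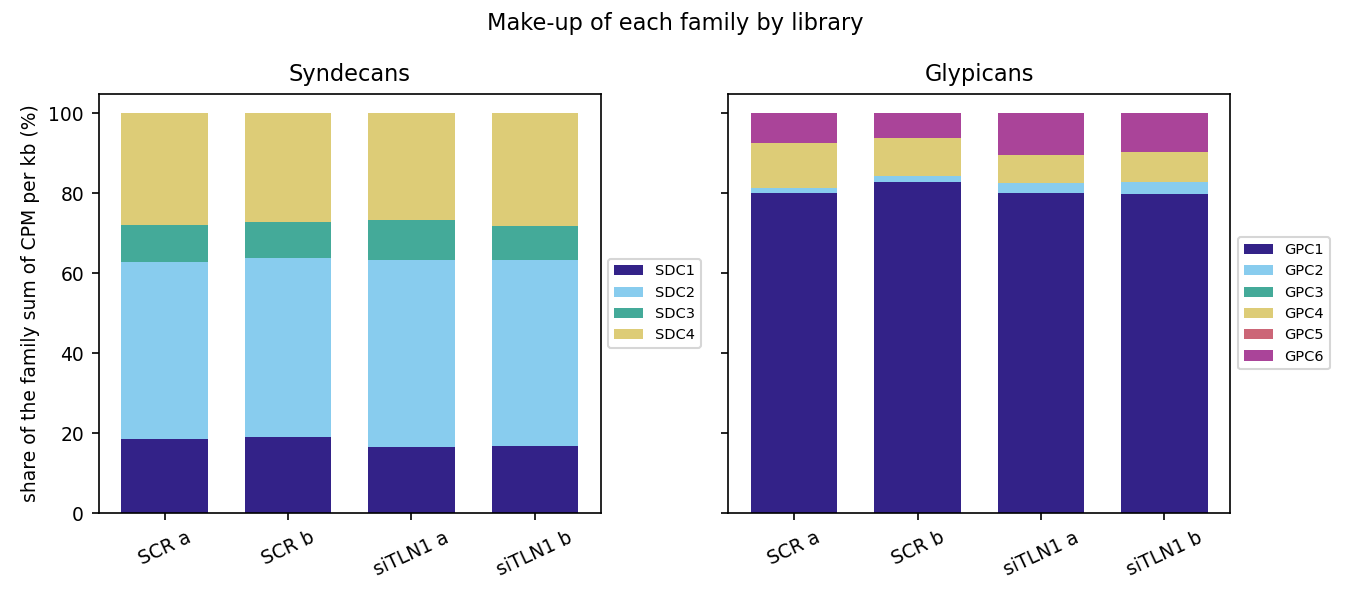
Share of each member in its family's summed CPM per kb, as stacked bars per library in percent. SDC2 is the largest syndecan share (44.3% to 46.7%) and GPC1 the largest glypican share (79.7% to 83.0%) in all 4 libraries, and the GPC4 band is narrower in siTLN1.

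Genes related to heparan sulfate and to other proteoglycans were followed in 8 lists of 179 genes, of which 148 were tested. Not every listed gene builds, edits or binds heparan sulfate. Of the 148 genes, 10 were higher and 11 lower in siTLN1 (edgeR adjusted p under 0.05), or 14.2% called against the 6.07% of all genes. The lists were written from general knowledge with earlier results of these data known, so their counts are descriptions. Without siTLN1 library a the count was 13, and over all genes it was 347 in place of 980.

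Among enzymes that start and extend the chains, 5 of 11 tested had an edgeR unadjusted p under 0.05 (2 higher, 3 lower). Over all genes tested, 19.8% did. Fewer passed the adjusted threshold. Of 11 tested genes for chain linkage and polymerisation, 1 was lower and 0 were higher (9.09% against 6.07%), with a median log2 fold change of −0.021. It was XYLT1, which adds the first xylose to the core protein, at 69.8 and 56.2 CPM in SCR and 49.8 and 41.1 CPM in siTLN1 (log2 fold change −0.47, edgeR adjusted p 0.0390). Without SCR library a it was −0.31 (adjusted p 0.130), without siTLN1 library b −0.33 (0.189), and with no filter the adjusted p was 0.0657. The polymerase subunits EXT1 and EXT2 had log2 fold changes of −0.039 and −0.22 (adjusted p 0.881 and 0.173). In the list for sulfation, epimerisation and precursor supply, 6 of 16 tested genes had an edgeR unadjusted p under 0.05 (2 higher, 4 lower). By adjusted p, 1 of the 16 was lower and 0 were higher (6.25% against 6.07%), with a median of 0.052. It was PAPSS2, which makes the sulfate donor, at 64.8 and 59.8 CPM in SCR and 48.2 and 46.2 CPM in siTLN1 (log2 fold change −0.40, edgeR adjusted p 0.0205). That call was lost without SCR library a (adjusted p 0.0803), siTLN1 library a (0.127) and siTLN1 library b (0.128), and narrowly with no filter. Of its exon bases 3.58% are shared with an opposite-strand gene.

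Genes that edit or degrade finished chains moved in both directions, with 2 higher and 2 lower of 11 tested (36.4% called against 6.07% of all genes). The median log2 fold change of this list was −0.15. SULF1, an extracellular enzyme that removes 6-O-sulfates from heparan sulfate, was at 1471 and 1480 CPM in SCR and 922 and 988 CPM in siTLN1. The groups were well apart, at a log2 fold change of −0.63 (SE 0.10, edgeR adjusted p 0.00119), and the call was kept in all 12 other fits. Its paralog SULF2 was scarce, at 1.35 and 0.775 CPM in SCR and 0.302 and 0.468 CPM in siTLN1 (log2 fold change −1.41, edgeR adjusted p 0.0381). Of the exon bases of SULF2, 4.63% are shared with opposite-strand genes, NCOA3 among them, so this low level is uncertain. DESeq2 gave SULF2 no adjusted p, so that fit neither kept nor lost its call. HPSE, the heparanase that cuts the chains, was low as well but higher in siTLN1, from 1.64 and 1.67 CPM to 2.77 and 3.21 CPM (log2 fold change 0.86, edgeR adjusted p 0.0200). GUSB, a lysosomal enzyme of chain breakdown, went from 47.2 and 53.3 CPM to 62.9 and 66.4 CPM (0.36, edgeR adjusted p 0.0381). The call of SULF2 was lost without SCR library a (−0.97, adjusted p 0.244) or siTLN1 library a (−1.16, 0.210), and also in the unfiltered fit (adjusted p 0.0721) and in limma-voom (0.0548). The call of HPSE was lost without siTLN1 library b (0.75, adjusted p 0.111) and in DESeq2 (adjusted p 0.0709). The call of GUSB was lost without SCR library a (0.28, adjusted p 0.193), siTLN1 library a (0.40, 0.157) or siTLN1 library b (0.33, 0.182), and with no filter (0.0686).

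Genes for shedding and cleavage of the core proteins and for the cytoplasmic partners of syndecans gave no call in edgeR. In the shedding list, 0 of 14 tested genes passed, 7 had an unadjusted p under 0.05 (4 higher, 3 lower; 19.8% of all genes tested did), DESeq2 called 2, and limma-voom and limma-trend without a replicate term called 0. Its median log2 fold change was 0.048. In the partner list, 0 of 19 passed, 4 had an unadjusted p under 0.05, near the 19.8% of all genes tested and all of them lower, and DESeq2, limma-voom and limma-trend without a replicate term called 0. Its median was −0.032. SDCBP, the PDZ protein syntenin that binds syndecan tails, had a log2 fold change of 0.10 (edgeR adjusted p 0.619). PRKCA, the kinase that SDC4 recruits, had 0.14 (adjusted p 0.526). These genes, like EXT1 and EXT2, were named after their values were seen.

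In the list of other cell-surface and matrix proteoglycans, 3 of 16 tested genes were higher and 0 lower (18.8% called against 6.07% of all genes). The median log2 fold change of this list was 0.094. SPOCK3, a testican, went from 0.724 and 1.06 CPM to 2.17 and 2.57 CPM (log2 fold change 1.41, edgeR adjusted p 0.00338). NRP2, a co-receptor for semaphorins and VEGF, went from 59.1 and 64.7 CPM to 87.9 and 85.4 CPM (0.48, edgeR adjusted p 0.00548). DCN, the matrix proteoglycan decorin, went from 337 and 339 CPM to 471 and 442 CPM (0.43, edgeR adjusted p 0.0103). Without siTLN1 library a the calls of NRP2 (0.46, adjusted p 0.0711) and DCN (0.39, adjusted p 0.126) were lost. The libraries of each of these 3 genes were higher in siTLN1 without overlap, and the groups did not overlap for 48.4% of all genes tested.

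The ligands that bind heparan sulfate moved in both directions, with 4 of 29 tested genes higher and 5 lower (31.0% called against 6.07% of all genes). The median log2 fold change of this list was −0.064. BMP2 and BMP4, ligands of the bone morphogenetic protein pathway, were higher. BMP2 went from 14.2 and 16.2 CPM to 28.1 and 27.2 CPM (log2 fold change 0.86, edgeR adjusted p 0.000152). BMP4 went from 10.7 and 13.6 CPM to 21.5 and 19.7 CPM (0.76, edgeR adjusted p 0.00169), but 16.3% of its exon bases are shared with an unnamed gene on the opposite strand, so its level is uncertain. CXCL8, a chemokine for neutrophils, fell from 88.6 and 83.7 CPM to 32.5 and 41.9 CPM (−1.21, edgeR adjusted p 1.88e-05). SLIT2, a guidance ligand known to bind GPC1, went from 60.0 and 50.1 CPM to 36.7 and 33.9 CPM (−0.64, edgeR adjusted p 0.00167).

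Of 32 tested co-receptor genes, 1 was higher and 2 lower (9.38% called against 6.07% of all genes), with a median log2 fold change of 0.050. FZD6, a Wnt receptor, fell from 209 and 183 CPM to 88.2 and 75.5 CPM (log2 fold change −1.26, edgeR adjusted p 3.33e-06), and 3.39% of its exon bases are shared with an opposite-strand gene. FZD7, another Wnt receptor, went from 132 and 129 CPM to 185 and 161 CPM (0.41, edgeR adjusted p 0.0184). ITGA2, a collagen-binding integrin subunit, went from 129 and 114 CPM to 98.0 and 93.8 CPM (−0.34, edgeR adjusted p 0.0473). The call of FZD7 was lost without SCR library b (0.39, adjusted p 0.0534) or siTLN1 library a (0.30, 0.286). The call of ITGA2 was lost without SCR library a (−0.24, adjusted p 0.263), siTLN1 library a (−0.37, 0.200) or siTLN1 library b (−0.30, 0.213), and with no filter (0.112).

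**Figure D5:**
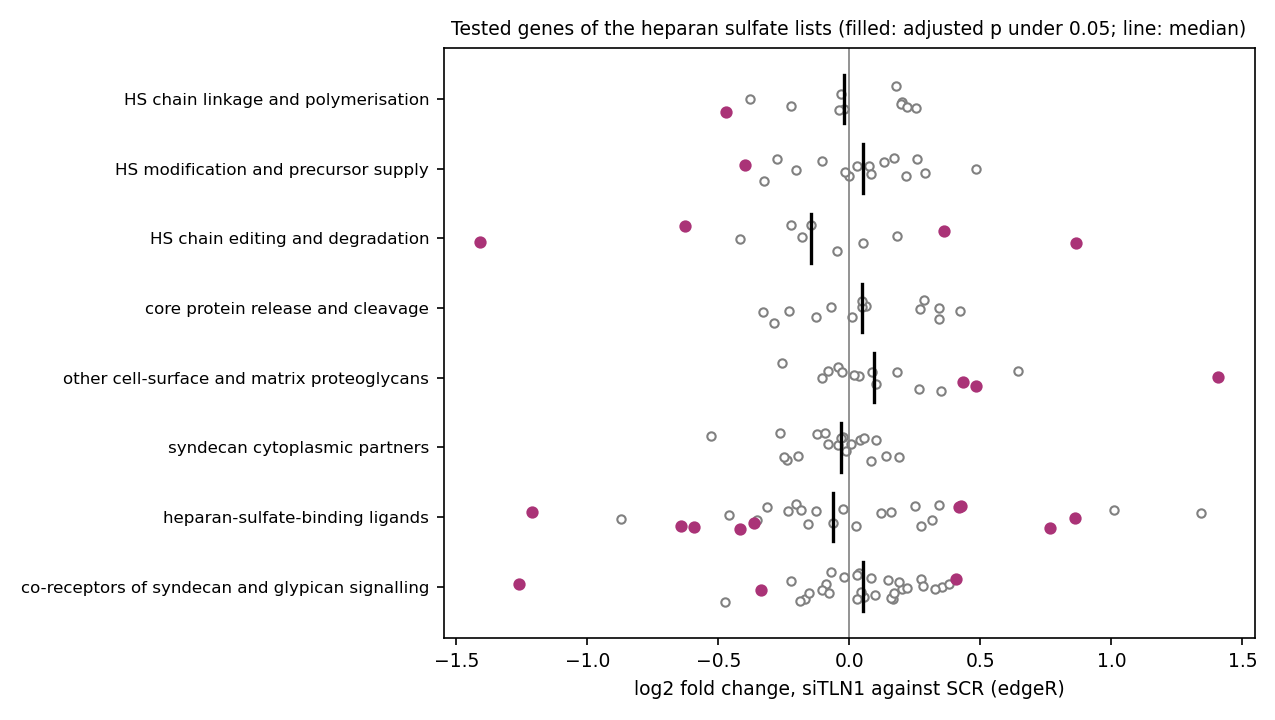
Log2 fold change of siTLN1 against SCR for every tested gene of the 8 lists of heparan sulfate and other proteoglycan genes. Points are genes, filled where the edgeR adjusted p is under 0.05, with a black line at each list's median. The medians lie between −0.15 (chain editing and degradation) and 0.094 (other proteoglycans), and the shedding and cytoplasmic partner lists have no filled point.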

How the data were processed

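RNA of HS578T cells was measured as polyadenylated RNA in 4 stranded mRNA libraries. The authors deposited raw counts per gene from featureCounts 2.0.0 in paired mode without a strand option, on GENCODE 33 for GRCh38, per the file headers. STAR 2.7.9a is listed in the submitters' processing notes. Gene lengths in bases of exon come from the same deposited table. The authors also deposited log2 CPM values for 16137 genes. Within groups, 100% of these values equalled TMM-scaled log2 CPM from edgeR within 1e-06.

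Count columns name only their group, so their libraries are called a and b after a number that recurs in each group and appears in no label. The log2 CPM table names its columns by group and replicate number, as in the sample titles. By their values, library a matched replicate 1 and library b replicate 2. For GPC1, 158 and 182 CPM in SCR a and b went with log2 CPM of 7.30 and 7.51 in replicates 1 and 2. In siTLN1, 123 and 112 CPM went with 6.94 and 6.81. Whether the recurring number marks a shared preparation is not stated.

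IDs were matched to symbols without their version. Of 60721 genes, 16137 passed filterByExpr (minimum count 10, minimum total 15). Groups were compared with edgeR 4.0.16 in R 4.3.3 (TMM, estimateDisp, glmQLFit robust, glmQLFTest) across all of them, with Benjamini-Hochberg adjustment and a threshold of 0.05, after the procedure was tested on simulated data. SDs are over 2 libraries, and intervals are at 95%. The alternatives tried were RLE scaling, scaling to total counts alone, no filter, a mean of at least 10 counts, DESeq2 1.42.0, limma-voom on the counts, limma-trend (limma 3.58.1) on the deposited log2 CPM, a replicate block there, and each library left out. Named genes are the members, TLN1 and up to 4 called genes with the smallest p per list, and EXT1, EXT2, SDCBP and PRKCA were added after their values were seen. Members and lists were chosen with earlier results of these data known. Protein sequences were not analysed here. Python 3.11.15 was used for sequences, with matplotlib 3.10.9 for figures.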

Additional observations from a re-analysis of the deposited data

How the results depend on the processing

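The calls of TLN1, GPC1 and GPC4 and the missed calls of SDC2, SDC3, SDC4 and GPC6 were the same under all 12 alternatives. Log2 fold changes ran from −0.53 to −0.52 for GPC1 and from −1.0 to −0.99 for GPC4 with all 4 libraries, and from −0.63 to −0.42 and from −1.04 to −0.97 when 1 library was left out, an arm with a lone sample being assumed to vary like the other group. Leaving out 1 library turned the sign of 3 members near 0, with ranges of −0.041 to 0.046 for SDC2, −0.15 to 0.038 for SDC3 and −0.035 to 0.20 for GPC6.

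The replicate numbers of the labels state no shared preparation. Differences between replicates 1 and 2 correlated between the groups at 0.19 across genes, and at 0.54 across genes at a mean of at least 5 CPM. With the replicate block, limma-trend called SDC1 (−0.23) and GPC2 (0.56) as well, so 4 of the 8 tested members passed. It called 3645 of the 16137 genes tested (970 of them among the 980), 1936 lower and 1709 higher. Of the 148 tested list genes it called 71, in place of 21. These included 8 of 11 for chain linkage and polymerisation, 7 of 14 for shedding and 5 of 19 cytoplasmic partners. Calls were more frequent over all genes as well, so these counts are descriptions. Leaving out 1 library gave 347 to 1116 changed genes, 244 to 613 lower and 103 to 503 higher, with 13 to 22 list genes. With no filter 389 genes were lower, in place of 609, with 663 changed. DESeq2 gave no adjusted p for 3755 genes. CPM without length gave 3 members another rank in SCR. With 2 libraries a group, the number of libraries limits precision for abundant members, and counts limit it for GPC2, GPC3 and GPC5.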
